A study of Mus musculus with 3 samples.

Results

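A set of 9 chemokine receptor genes was followed through the blood cells of young mice, aged mice and aged mice given glycyrrhizic acid: Ccr2, Ccr6, Ccr9, Cx3cr1, Cxcr2, Cxcr3, Cxcr4, Cxcr5 and Cxcr6. They were chosen by symbol, as 9 of the 32285 genes in the deposited count matrices, and were described across cell types gated by marker genes in the 3 libraries. No chemokine receptor was used as a marker of any gate.

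The study sequenced single peripheral blood mononuclear cells (PBMCs) to ask how age and glycyrrhizic acid (GA), a saponin of licorice root, alter circulating immune cells. The groups were young mice of 8 weeks, aged mice of 16 months, and aged-GA mice of 16 months that had received GA for 1 month. According to the methods of the study, all were female C57BL/6 mice, the young mice were purchased and the aged mice came from the laboratory's own reserve, so that age and source cannot be told apart. The methods describe tail vein injections of GA on alternate days and of phosphate-buffered saline in controls, while the labels of the young and aged samples list no treatment. Each group was 1 library, and the files do not tie cells to animals. No test between groups was therefore possible, and every interval given is a 95% interval of counting error only.

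Chemokine receptors are G protein-coupled receptors that sense gradients of secreted chemokines and steer leukocytes between bone marrow, blood and tissue. In mouse blood, CCR2, the receptor for CCL2, lets classical monocytes leave the marrow, and CX3CR1, the receptor for the membrane-bound chemokine CX3CL1, is high on patrolling nonclassical monocytes and on terminally differentiated cytotoxic lymphocytes. CXCR2 draws neutrophils out of the marrow and CXCR4, the receptor for CXCL12, holds cells in it. CXCR3 and CXCR6 mark activated and memory T cells, CCR9 directs cells to the small intestine, and CXCR5 and CCR6 position B cells.

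After the cell filters of the study, the young, aged and aged-GA libraries held 8851, 10238 and 12648 cells, with 48249945, 53770440 and 75832322 UMIs (unique molecular identifiers, each counted as 1 molecule) and medians of 4671, 3810.5 and 4752 UMIs per cell. The study itself reported different cell numbers for each library. Gates, including that of red cells, took 65.9%, 78.0% and 77.6% of the cells kept here, and a gated population is called "-like" because markers alone define it. Of 17 leukocyte gates, 10 reached 50 cells in the young library, 14 in the aged and 13 in the aged-GA. The young library gave only 2 classical monocyte-like cells and 7 mature neutrophil-like cells, so that myeloid receptors could be compared only between aged and aged-GA mice. No plasmacytoid dendritic cell passed its gate, and conventional dendritic cells numbered 0, 6 and 0. Between 50 and 62 cell barcodes were shared by any 2 libraries. Doublet calls were few in most gates but made up 44.8% of the 67 young T cells with NK markers and 16.2% of the 68 young memory CD4 T-like cells.

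All 9 genes are protein coding, and 5 of them lie on chromosome 9. In the GENCODE annotation of GRCm38, Ccr9 is at chr9:123678439-123784330, Cxcr6 at chr9:123806475-123811760 and Ccr2 at chr9:124101950-124113557, all on the plus strand within 435 kb. Cx3cr1 (chr9:119901616-120069879) and Cxcr5 (chr9:44511787-44561877) are on the minus strand of the same chromosome. Cxcr2 (chr1:74153989-74161246, plus strand), Cxcr4 (chr1:128588199-128592293, minus strand), Ccr6 (chr17:8236043-8257141, plus strand) and Cxcr3 (chrX:101731535-101734269, minus strand) complete the set. Cxcr6 overlaps Fyco1 on the opposite strand, Cxcr5 overlaps Bcl9l, and the long models of Ccr9 and Cx3cr1 overlap several other genes, so that reads in shared stretches could have been assigned otherwise.

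The receptors divided the blood by lineage. Levels are given as CPM, the UMIs of a gene per 1000000 UMIs of all cells of a gate in a library, and since the chemistry tags the 3′ end of each transcript they do not scale with gene length. They depend on the denominator: with haemoglobin, mitochondrial, ribosomal protein and immunoglobulin UMIs left out of it, Ccr9 in aged naive CD8 T-like cells was at 80.4 CPM instead of 41.4, Cxcr4 in young B-like cells at 544 instead of 331, and Cxcr4 in aged mature neutrophil-like cells at 989 instead of 919. Of 333 combinations of receptor, leukocyte gate and library with 50 cells or more, 128 reached 10 CPM. Cxcr4 was the one receptor at 10 CPM or more in every such gate, namely 10 in the young, 14 in the aged and 13 in the aged-GA library. Cxcr2 was its opposite. It reached 10 CPM in 3 leukocyte gates of the aged library and 2 of the aged-GA library, all of them granulocytes, and in none of the young library. A gate of red cells, left out of these combinations, had Cxcr2 at 21.6 CPM (18.0 to 25.6) in the aged and 4.54 CPM in the aged-GA library.

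**Figure D1:**
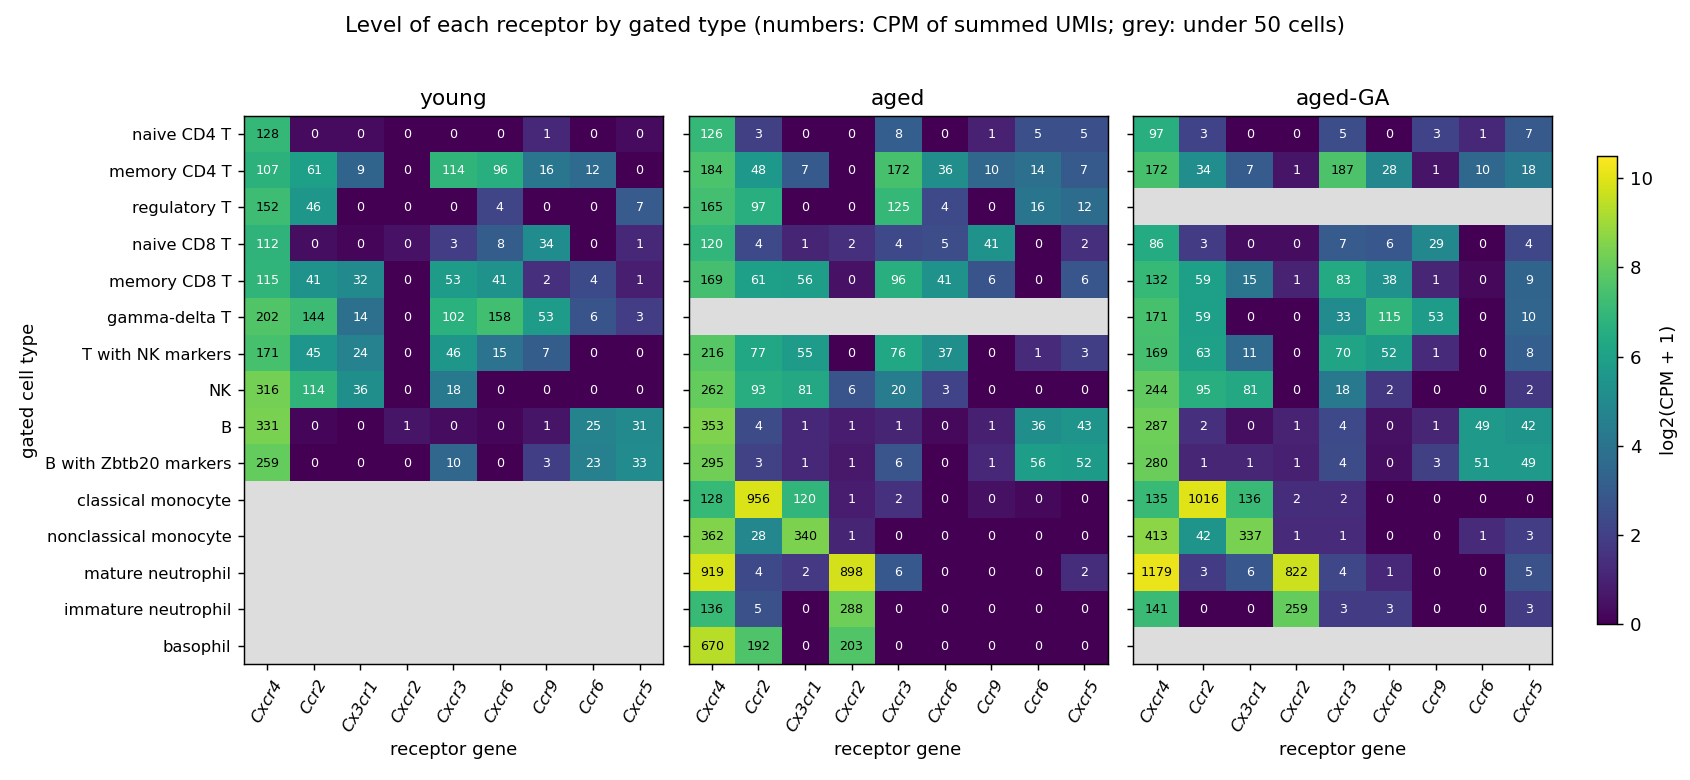
Level of each receptor gene (columns) in each gated cell type (rows) of the 3 libraries, coloured by log2(CPM + 1) and printed in CPM rounded to whole numbers, with grey for gates of fewer than 50 cells. Ccr2 and Cxcr2 stand out in classical monocyte-like and neutrophil-like cells at 956 and 898 CPM in aged mice, while Cxcr4 is spread over every row.

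In the aged and aged-GA libraries the highest level lay in classical monocyte-like cells for Ccr2, in nonclassical monocyte-like cells for Cx3cr1 and in mature neutrophil-like cells for Cxcr2 and Cxcr4. The young library, with too few myeloid cells, had its highest Ccr2 in gamma-delta T-like cells (144 CPM) and its highest Cx3cr1 in NK-like cells (36.0 CPM). In all 3 libraries Cxcr3 was highest in memory CD4 T-like cells and Cxcr5 in B cells with Zbtb20 markers. Ccr6 was highest in B-like cells of the young library and in B cells with Zbtb20 markers of the others. Gamma-delta T-like cells had the most Cxcr6 and Ccr9 in the young and aged-GA libraries, whereas in the aged library, where that gate held 24 cells and was left out, memory CD8 T-like cells had the most Cxcr6 and naive CD8 T-like cells the most Ccr9. Counting intervals of the leading and the next gate overlapped for Cxcr5 in all 3 libraries and for Cxcr3 and Cxcr6 in the young and aged libraries. They also overlapped for Ccr6 and Ccr9 in the young and aged-GA libraries, and for Ccr2 and Cx3cr1 in the young library. The order of these gates was therefore not clear of counting error. When every cell was thinned to 1000 UMIs, the gate with the largest share of cells with a UMI was the gate of highest CPM in 21 of 27 combinations of receptor and library.

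In monocytes, Ccr2 and Cx3cr1 had opposite gradients. Ccr2 stood at 956 CPM (interval 930 to 982, 5172 UMIs) in the 538 aged classical monocyte-like cells and at 1016 CPM (940 to 1098, 649 UMIs) in the 68 aged-GA cells. In nonclassical monocyte-like cells it stood at 27.6 CPM in the aged and 42.3 CPM in the aged-GA library. The classical gate was thus higher by 34.6-fold (26.2 to 46.7) in aged mice and 24.0-fold (16.8 to 35.7) in aged-GA mice. Nearly every classical monocyte-like cell carried a Ccr2 UMI (529 of 538 and 67 of 68), and after thinning to 1000 UMIs the shares were 59.7% and 55.9%. B-like cells, which should lack the gene, had a UMI in 1.45% of aged cells at a median of 3034 UMIs per cell, against 9719.5 in the classical gate.

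Cx3cr1 ran the other way. It was at 341 CPM (314 to 369) and 337 CPM (296 to 382) in nonclassical monocyte-like cells and at 120.1 and 136 CPM in classical ones of aged and aged-GA mice, a ratio of 2.83 (2.53 to 3.17) and 2.47 (1.93 to 3.20). The 42 young nonclassical monocyte-like cells, a gate under the minimum of 50 cells, gave 256 CPM (191 to 337). The gradient of Cx3cr1 was shallower than that of Ccr2 in both libraries, because classical monocyte-like cells kept a clear Cx3cr1 signal. In 36 of 538 aged classical monocyte-like cells both receptors were seen after thinning, where the product of the separate shares gave 31.6. A small gate of monocytes assigned to neither subset held an intermediate mix in aged mice, with 523 CPM of Ccr2 and 263 CPM of Cx3cr1 in 66 cells.

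**Figure D2:**
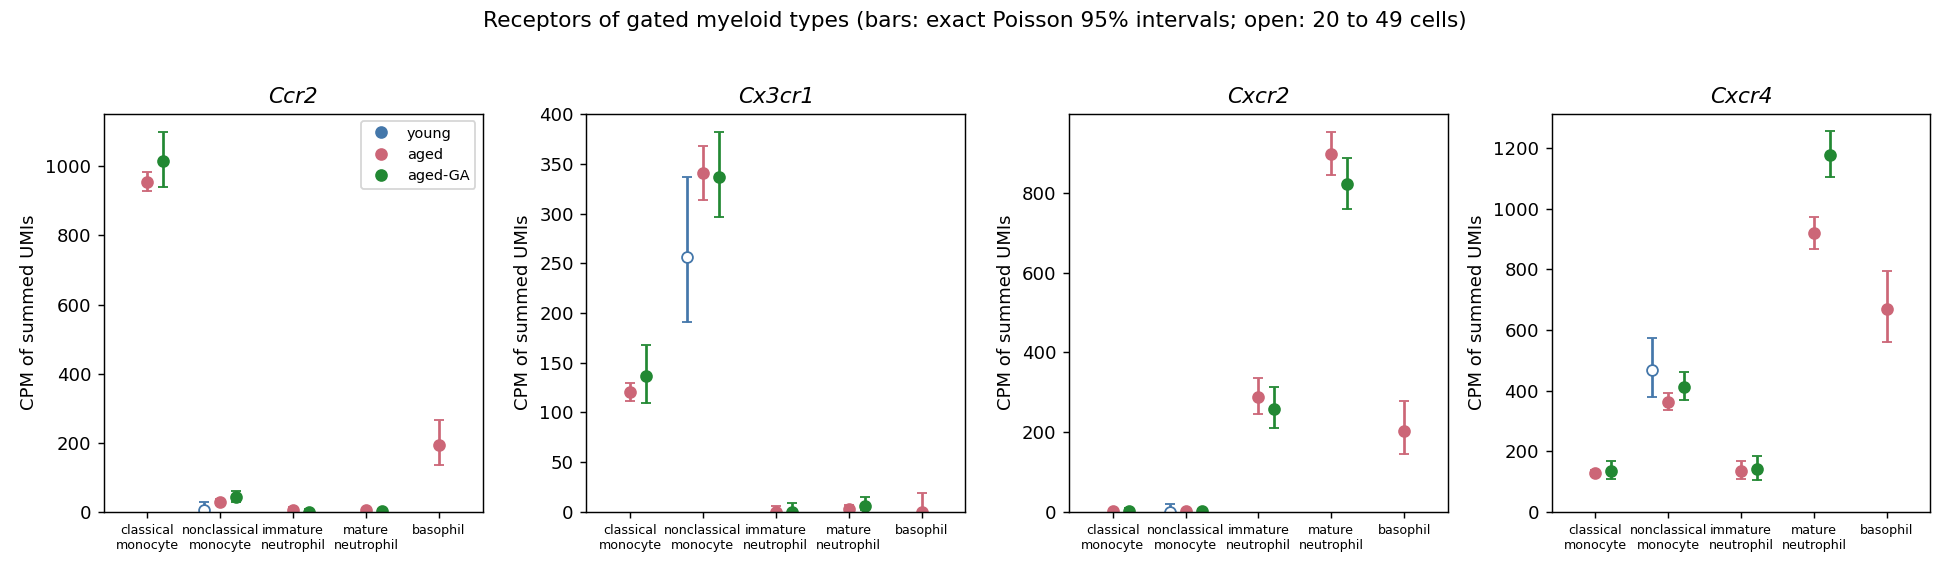
CPM of Ccr2, Cx3cr1, Cxcr2 and Cxcr4 (vertical axes, from 0) in 5 gated myeloid cell types, with points coloured by library, bars giving exact Poisson 95% intervals and open points marking 20 to 49 cells. Ccr2 and Cx3cr1 mark opposite monocyte gates, and Cxcr2 and Cxcr4 are both higher in mature than in immature neutrophil-like cells.

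In neutrophils, both receptors of marrow exit and retention were higher in the mature gate, defined by neutrophil markers other than the receptors with few immature granule transcripts. Cxcr2 was at 898 CPM (846 to 951) in 584 aged and 822 CPM (761 to 888) in 340 aged-GA mature neutrophil-like cells. In immature neutrophil-like cells, which carry granule transcripts such as Ngp and Ltf, it was at 288 and 259 CPM, lower by 3.12-fold (2.65 to 3.68) and 3.17-fold (2.58 to 3.95). Cxcr4 differed more between the same gates. It was at 135.6 and 140.8 CPM in the immature gate and at 919 (867 to 974) and 1179 CPM (1105 to 1257) in the mature gate, a ratio of 6.78 (5.40 to 8.61) and 8.37 (6.39 to 11.2). The 2 receptors were seen in the same mature cells about as often as their separate shares give, in 169 thinned aged cells where the product was 175.7 and in 112 aged-GA cells where it was 111.4.

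The stretches before the start sites of Cxcr2 and Cxcr4 are shown because these genes were high in the same mature neutrophil-like gate while their levels elsewhere parted. They were taken from RefSeq on GRCm38.p6, end before the RefSeq start and lie outside the annotated gene. The capitals mark the matches found in a search for 6 motifs on both strands: the E-box CAGGTG in Cxcr2, starting 127 bases before the RefSeq start, and the letters TATAAA of a core promoter box in Cxcr4, starting 30 bases before it and overlapping its reverse complement at 32 bases.
Cxcr2, chr1:74153744-74153988, plus strand: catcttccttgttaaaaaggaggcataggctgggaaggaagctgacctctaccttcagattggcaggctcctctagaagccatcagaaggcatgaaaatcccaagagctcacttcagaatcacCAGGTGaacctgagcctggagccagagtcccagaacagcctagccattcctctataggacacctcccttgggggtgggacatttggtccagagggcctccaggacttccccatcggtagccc
Cxcr4, chr1:128592300-128592549, minus strand: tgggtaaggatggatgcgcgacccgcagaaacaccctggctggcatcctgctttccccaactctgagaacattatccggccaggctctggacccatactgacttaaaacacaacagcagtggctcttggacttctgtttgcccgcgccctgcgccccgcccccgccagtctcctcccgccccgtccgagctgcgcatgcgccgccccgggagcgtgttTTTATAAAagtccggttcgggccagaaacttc
The G and C content of the 250 bases before the start was 54.4% for Cxcr2 and 61.2% for Cxcr4. Of 32851 promoters of the same length, 17.2% held the E-box letters and 12.4% the core promoter letters. Promoter entries were matched for 8 of the 9 receptors, with none for Cxcr5. Among these, the E-box was also found in Ccr9 and Cxcr3, the PU.1 letters GAGGAAG (in 10.6% of promoters) in Ccr6 and Cxcr3, and the letters AGATAA bound by GATA factors (in 9.99%) in Ccr2 and Ccr6. The Runx letters TGTGGTT (in 4.4%) and the T-box letters GGTGTGA (in 3.33%) were in none of them, and a match of letters is a description, not a site.

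Basophil-like cells, gated by genes such as Mcpt8 and Gata2, had 3 of the receptors above 10 CPM when summed over the gate. In 77 aged cells Cxcr4 was at 670.0 CPM (559 to 796), Cxcr2 at 202.6 CPM (144.0 to 277) and Ccr2 at 192 CPM (135 to 265), while Cx3cr1, Cxcr3, Cxcr5, Cxcr6, Ccr6 and Ccr9 were at 0 UMIs. The 15 aged-GA basophil-like cells, too few for a comparison, gave 787, 246 and 49.2 CPM for the first 3 receptors. The gate thus held Ccr2, highest in classical monocyte-like cells, as well as Cxcr2, highest in mature neutrophil-like cells. Whether single basophil-like cells carried both was not examined.

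Among lymphocytes, Cxcr4 was high in B and NK-like cells. In B-like cells it stood at 331 CPM (318 to 344), 353 CPM (342 to 363) and 287 CPM (279 to 295) in the young, aged and aged-GA libraries, in B cells with Zbtb20 markers at 258.7, 295.3 and 279.5 CPM, and in NK-like cells at 316, 262 and 244 CPM. Naive T-like cells were lower in every library. Naive CD4 T-like cells stood at 128, 126 and 96.8 CPM, so that B-like cells exceeded them by 2.58-fold (2.36 to 2.83), 2.81-fold (2.36 to 3.37) and 2.96-fold (2.52 to 3.52). In the aged and aged-GA libraries memory CD4 T-like cells (184 and 172 CPM) lay above naive ones, by 1.47-fold (1.17 to 1.84) and 1.78-fold (1.46 to 2.17), but in the young library (107 CPM) the interval of that ratio included 1 (0.607 to 1.13). The plasma cell-like gate, with 36 aged and 29 aged-GA cells, had the least Cxcr4, at 33.9 and 42.5 CPM. Nonclassical monocyte-like cells (467, 362 and 413 CPM, the first from 42 cells) held 2.82-fold and 3.07-fold the Cxcr4 of classical ones in aged and aged-GA mice.

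Ccr2 and Cx3cr1 were also receptors of cytotoxic lymphocytes. In NK-like cells Ccr2 was at 114 CPM (94.4 to 136), 92.9 CPM (74.0 to 115) and 95.1 CPM (76.0 to 118), and Cx3cr1 at 36.0 CPM (25.5 to 49.5), 80.6 CPM (63.0 to 101) and 80.6 CPM (63.1 to 102). The order of the 2 genes was thus clear of counting error in young NK-like cells, whereas their intervals overlapped in the other libraries. Few NK-like cells carried both. After thinning, 0 of 311, 0 of 238 and 0 of 247 cells had a UMI of each, where the products of the shares gave 1.09, 1.77 and 0.972 cells, and without thinning 4, 3 and 3 cells did, where the products gave 5.6, 8.43 and 9.13. A count of 0 at this depth does not show that the 2 are never found together.

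Genes of NK cell maturity differed in part between NK-like cells with and without a Cx3cr1 UMI. Cd27, which mature mouse NK cells lose, was at 8.72, 17.9 and 0 CPM in them against 36.2, 64.7 and 65.5 CPM in NK-like cells without a Cx3cr1 UMI, in the young, aged and aged-GA libraries, but the former rest on 1, 3 and 0 UMIs and the young and aged intervals overlapped. Klrg1, an inhibitory receptor of mature cells, went the other way, at 183, 280 and 381 CPM against 127, 171 and 216 CPM. S1pr5 was higher in cells with a UMI in the young and aged-GA libraries but not in the aged (95.5 against 114 CPM), and Itgam was higher in the aged and aged-GA libraries but not in the young (183 against 194 CPM). These genes were picked after their values were seen, and cells with a UMI were slightly deeper, with medians of 3428 to 3566 UMIs against 3007 to 3313.

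In T cells Ccr2 marked memory cells. Cx3cr1 was above 10 CPM in memory CD8 T-like cells of all 3 libraries but not in memory CD4 T-like cells. These had 9.34, 6.79 and 7.32 CPM in the young, aged and aged-GA libraries. Ccr2 was at 41.1, 60.6 and 59.2 CPM in young, aged and aged-GA memory CD8 T-like cells, against 0.328, 3.97 and 2.57 CPM in naive CD8 T-like cells. The ratio was 15.3 (7.22 to 38.7) in the aged library and 23.0 (12 to 50.8) in the aged-GA library. Regulatory T-like cells, gated by Foxp3, had Ccr2 at 46.0, 96.6 and 125 CPM, the last from 41 cells. Gamma-delta T-like cells had the highest lymphoid value, 144 CPM (108 to 189) in the young library, with 59.2 CPM (35.1 to 93.6) in the aged-GA library and 3 UMIs in the 24 aged cells.

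Cxcr3 and Cxcr6, receptors for interferon-induced chemokines and for CXCL16, followed memory T cells closely. Cxcr3 was at 114 CPM (84.6 to 151), 172 CPM (149.5 to 198) and 187 CPM (168 to 207) in memory CD4 T-like cells and at 52.8 CPM (40.6 to 67.5), 95.7 CPM (83.5 to 109) and 83.4 CPM (76.2 to 91.1) in memory CD8 T-like cells. Naive CD4 and CD8 T-like cells stayed below 10 CPM in every library. A UMI of Cxcr3 was found in 33.8%, 39.8% and 50.7% of memory CD4 T-like cells, and after thinning in 5.88% (1.63 to 14.4), 15.9% (11.7 to 20.9) and 18.3% (14.5 to 22.5), against 0.0488%, 0.0549% and 0.410% of B-like cells. In regulatory T-like cells Cxcr3 had no UMI in the young library, with an interval that reached 13.06 CPM. It was at 125 CPM (84.8 to 177) in the aged and 212 CPM (157 to 280) in the 41 aged-GA cells.

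In gamma-delta T-like cells Cxcr6 was second to Cxcr4 (202 and 171 CPM) in the young and aged-GA libraries. It stood at 158 CPM (119.6 to 205) in the young and 115 CPM (80.2 to 160.1) in the aged-GA library, and at 91.2 CPM (43.8 to 168) in the 24 aged cells. Memory CD8 T-like cells were nearly level, at 41.1, 41.1 and 38.4 CPM. In memory CD4 T-like cells it was at 95.7 CPM (68.7 to 129.9), 35.7 CPM (25.7 to 48.2) and 28.2 CPM (21.2 to 36.8), but the 41 young UMIs came from 9 cells and 1 of these held 12. NK-like cells had 0, 3.36 and 2.24 CPM. Without thinning, 7, 15 and 25 memory CD4 T-like cells of the young, aged and aged-GA libraries had a UMI of both Cxcr3 and Cxcr6, where the products of the shares gave 3.04, 11.1 and 17.2. After thinning 0, 1 and 5 cells did, where the products gave 0.235, 1.43 and 2.56, and young cells with a Cxcr6 UMI were deeper (a median of 8624 against 5381 UMIs).

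In the young and aged-GA libraries, cells with a Cxcr6 UMI carried genes of type 17 cells, which make interleukin 17. Gzmb, given beside them, was chosen after its values were seen. In the aged-GA gamma-delta T-like gate, 8 cells with a Cxcr6 UMI had 43 UMIs of Il17a and 4 each of the receptor genes Il23r and Il17re, whereas the 46 cells without one had none of these genes. In the young gate, 15 cells with a Cxcr6 UMI had Il23r at 79.5 CPM against 15.4 CPM in 49 cells without. In memory CD4 T-like cells Il17a was at 170.9 against 0 CPM in young mice and at 109 against 9.20 CPM with GA, but aged cells with a Cxcr6 UMI had none and had Gzmb, a cytotoxic protease, at 136.8 against 13.9 CPM. Ccr6, the other receptor known for type 17 cells, was detected in 12 aged-GA memory CD4 T-like cells, in which Il23r and Il17re had 4 UMIs each against 3 and 2 in the other 371 cells, whereas Il17a had 1 against 34 UMIs (11.3 and 18.6 CPM). In 9 aged memory CD4 T-like cells with a Ccr6 UMI all of these genes were at 0 UMIs, against 3 of Il23r and 1 of Il17a in the other 255.

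**Figure D3:**
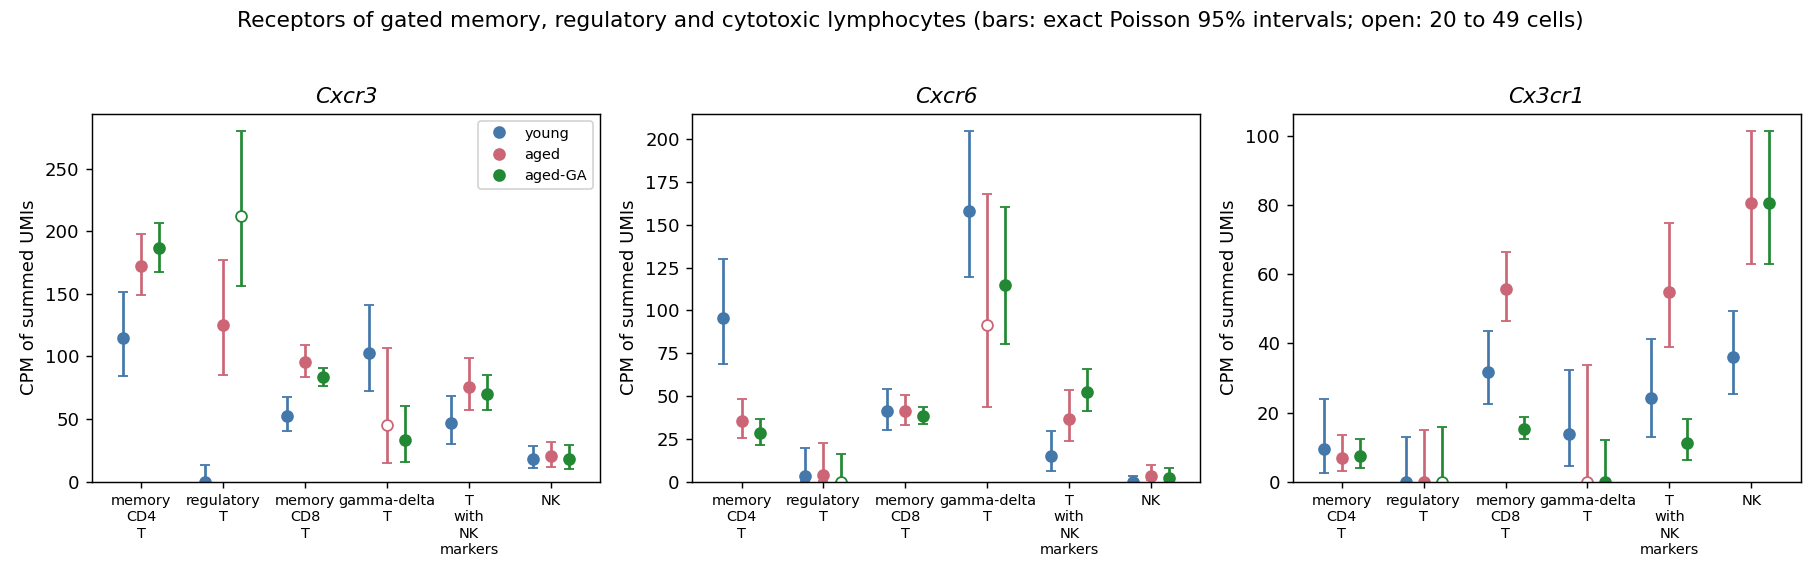
CPM of Cxcr3, Cxcr6 and Cx3cr1 (vertical axes, from 0) in 6 gated lymphocyte types, with points coloured by library, bars giving exact Poisson 95% intervals and open points marking 20 to 49 cells. Cx3cr1 is lower in aged-GA than in aged memory CD8 T-like cells (15.3 against 55.9 CPM) while NK-like cells of both libraries sit at 80.6 CPM.

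Ccr9 split the naive T cells. It was at 33.6 CPM (30.0 to 37.6), 41.4 CPM (32.5 to 52.1) and 29.1 CPM (23.7 to 35.3) in naive CD8 T-like cells and at 1.34, 0.974 and 3.29 CPM in naive CD4 T-like cells. The ratio was 25.2 (11.4 to 69.1) in young and 8.84 (3.67 to 27.8) in aged-GA mice, and in aged mice it was 42.5 (7.40 to 1703) with 1 UMI in the CD4 gate. In the young library 66.6% of all Ccr9 UMIs were in the naive CD8 gate, against 29.6% and 28.7% in the others, where that gate was smaller. Memory CD8 T-like cells were lower than naive ones in all 3 libraries (1.68, 5.63 and 1.18 CPM).

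Naive CD8 T-like cells with a Ccr9 UMI had less Ccl5, a chemokine gene that also served as a marker of the memory gate, at 8.95 against 101 CPM in young, 38.7 against 115.0 CPM in aged and 63.6 against 277 CPM in aged-GA mice. Itgae, which encodes the CD103 integrin of intestinal T cells, was higher in them in each library, at 55.1 against 32.3, 71.0 against 50.9 and 86.2 against 41.1 CPM. The depths of the 2 sets were alike, with medians of 5657 and 5879 UMIs in young mice. Gamma-delta T-like cells had Ccr9 at 52.7, 155 and 52.6 CPM, the aged value from 17 UMIs in 24 cells. In the 29 aged-GA plasma cell-like cells 18 UMIs were found in 6 cells, and in the 36 aged ones there were none.

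Ccr6 and Cxcr5 belonged to B cells. In B-like cells Ccr6 was at 24.7 CPM (21.3 to 28.5), 36.1 CPM (32.8 to 39.6) and 48.9 CPM (45.8 to 52.2) and Cxcr5 at 31.1 CPM (27.3 to 35.3), 42.8 CPM (39.2 to 46.6) and 42.3 CPM (39.4 to 45.3). For Ccr6 the 3 intervals did not overlap, and for Cxcr5 only the young one stood apart. B cells with Zbtb20 markers, a subset gated also by Fcrl5 and Cr2, had Ccr6 at 22.8, 56.5 and 51.0 CPM and Cxcr5 at 32.7, 51.9 and 48.9 CPM. Ccr6 was at 0 UMIs in naive CD8 T-like cells of all 3 libraries, with intervals that reached 0.404, 2.09 and 1.05 CPM.

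Without thinning, Ccr6 and Cxcr5 were seen together in 18, 48 and 147 B-like cells of the young, aged and aged-GA libraries, where the products of the shares gave 17.2, 49.4 and 117. Thinned to 1000 UMIs, 1, 3 and 12 cells had both, where the products gave 1.255, 4.85 and 9.75. At this depth 1.90% (1.36 to 2.59), 3.13% (2.59 to 3.74) and 5.05% (4.44 to 5.73) of B-like cells had a Ccr6 UMI, in the same order as the CPM. B cells with Tbx21 and Itgax markers, the set known as age-associated B cells, numbered 1, 22 and 31, and in the aged and aged-GA libraries had Cxcr3 at 30.2 and 37.7 CPM, from 2 and 4 cells.

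Between the aged and the young library, 34 of 81 pairs of receptor and gate had at least 20 UMIs over both libraries. The pairs came from 9 lymphoid gates and 8 of the receptors, with none for Cxcr2. Of these, 7 were at least 2-fold higher in aged mice and 1 was at least 2-fold lower, where 6.88% of all pairs of gene and gate were higher and 1.99% lower by this rule. The median log2 ratio of the receptor pairs was 0.49, against medians over all genes of 0.05 to 0.29 in the 9 gates. In 19 of the 34 pairs the counting interval excluded no difference, and 28 had the sign of a higher level in aged mice. The share over all genes was not taken for either count, and the median gene was itself higher in aged mice in all 9 gates. Ratios are on the log2(CPM + 1) scale, which understates those of low genes.

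The pairs higher in aged mice were of cytotoxic, regulatory and B cells. Cx3cr1 in NK-like cells had a log2 ratio of 1.14 (0.57 to 1.77), or 0.98 with a pseudocount of 10 CPM, in a gate where 6.86% of genes were past 2-fold. In T cells with NK markers Cx3cr1 was at 24.2 CPM (young) and 54.8 CPM (aged) and Cxcr6 at 14.9 and 36.5 CPM, log2 ratios of 1.15 (0.24 to 2.21) and 1.24 (0.11 to 2.65), in a gate where 9.89% of genes were past 2-fold. Adding 10 CPM in place of 1 gave 0.92 and 0.90, the ratio of Cx3cr1 was 0.16 when each cell counted equally, and with doublet calls left out the young gate fell under 50 cells. In memory CD8 T-like cells Cx3cr1 (31.8 and 55.9 CPM), Cxcr3, Cxcr4 and Ccr2 were all higher in aged mice without reaching 2-fold, with log2 ratios of 0.79 (0.28 to 1.37), 0.85 (0.45 to 1.29), 0.55 (0.27 to 0.85) and 0.55 (0.08 to 1.06).

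In regulatory T-like cells, where 18.4% of genes were past 2-fold, 2 of 3 receptors counted were higher in aged mice. Cxcr3, with 31 UMIs against 0, was 11.8-fold above the 3 UMIs taken as the limit of the young gate, and the interval of the log2 ratio began at 3.17. Ccr2 had a log2 ratio of 1.05 (0.04 to 2.17), which was 0.93 with a pseudocount of 10 CPM and 0.84 with haemoglobin, mitochondrial, ribosomal protein and immunoglobulin UMIs left out of the denominator. The gates held 63 young and 53 aged cells. Ccr6 in B cells with Zbtb20 markers was higher by 1.28 (0.53 to 2.18) on the log2 scale, and in B-like cells by 0.53 (0.30 to 0.80). Cxcr5 in B-like cells differed by 0.45 (0.23 to 0.69).

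The last of the 7 was Ccr2 in B-like cells, with 53 UMIs in aged and 1 in young cells, a log2 ratio of 2.24. The 53 UMIs lay in 53 cells, and Ccr2 was at 54.7, 21.3 and 2.65 CPM of the UMIs other than haemoglobin in aged, aged-GA and young barcodes that held red cell RNA and fewer than 200 genes. All 5 monocyte markers were detected in aged B-like cells, with a sum of 29.1 CPM against 9.41 CPM in young ones, and with a pseudocount of 10 CPM the log2 ratio was 0.50. The part of free RNA in this and other low values was not tested.

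Cxcr6 in memory CD4 T-like cells was the one pair at least 2-fold lower in aged mice, at -1.40 (-2.08 to -0.77) on the log2 scale. The ratio was -0.83 when each cell counted equally. Cxcr3 and Cxcr4 in the same gate were higher in aged mice, at 0.59 (0.14 to 1.07) and 0.77 (0.31 to 1.27). Cxcr4 stayed within -0.27 to 0.77 in all 9 gates and passed 2-fold in none.

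**Figure D4:**
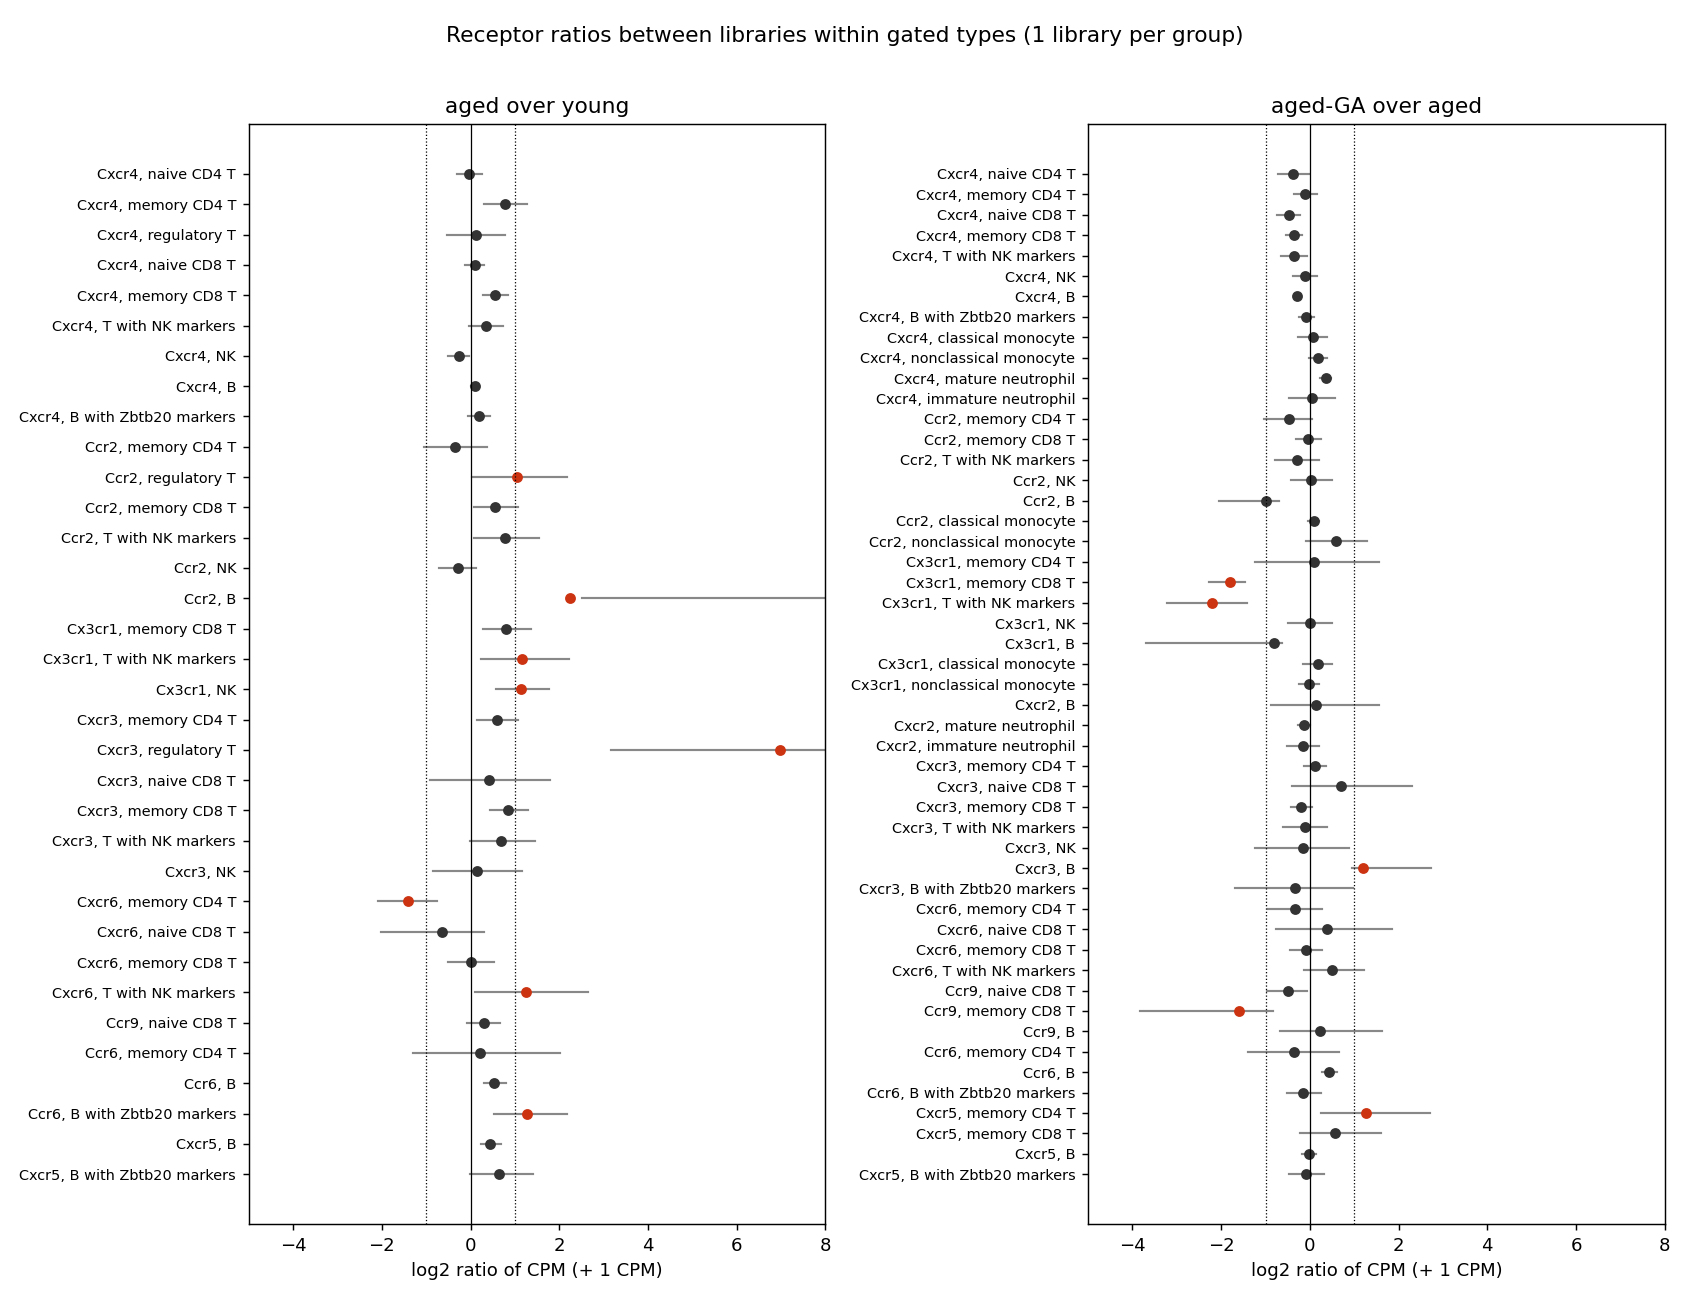
Log2 ratio of CPM (with 1 CPM added) of each receptor in each gate with at least 20 UMIs, aged over young on the left and aged-GA over aged on the right, with lines for the 95% interval of the ratio without the added CPM, drawn to 8 at most. Red points are past 2-fold (dotted lines). For genes of few CPM the point can lie nearer to 0 than its interval, as for Ccr2 in B-like cells at 2.24.

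Between the aged-GA and the aged library, 50 of 108 pairs were counted over 12 gates and all 9 receptors. With GA, 2 were at least 2-fold higher and 3 were at least 2-fold lower, where 1.52% of all pairs of gene and gate were higher and 1.69% lower. The median log2 ratio was -0.09, with 19 pairs above and 30 below 0. Signs were not counted over all genes, whose medians ran from -0.115 to 0.1 in the 12 gates. The 2 comparisons share the aged library, so that an aged value set high or low by chance enters both with opposite sign. The other 45 of the 50 pairs stayed within 2-fold.

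Cx3cr1 in cytotoxic T cells accounted for 2 of the 3 lower pairs. In memory CD8 T-like cells it was at 31.8 CPM (22.5 to 43.7) in young, 55.9 CPM (46.6 to 66.4) in aged and 15.3 CPM (12.4 to 18.8) in aged-GA mice. The aged-GA over aged ratio was -1.80 on the log2 scale (-2.27 to -1.47), in a gate where 2.36% of genes were past 2-fold. T cells with NK markers went the same way, at 24.2, 54.8 and 11.2 CPM, a log2 ratio of -2.20 (-3.23 to -1.42), in a gate where 4.97% were. The summed NK markers of that gate were at 1742, 1421 and 969.5 CPM in the same order, and those of the memory CD8 gate at 119, 281 and 224 CPM, and their part in these ratios was not tested. NK-like cells did not, with 80.6 CPM and 72 UMIs in each library and a log2 ratio of 0.00 (-0.49 to 0.49). Nonclassical monocyte-like cells also differed little (-0.01, interval -0.23 to 0.20). Both T cell ratios stayed past 2-fold under every alternative tried, from -1.82 to -1.38 in memory CD8 T-like cells and from -2.59 to -1.61 in T cells with NK markers. The shares of memory CD8 T-like cells with a Cx3cr1 UMI were 13.7%, 18.5% and 7.62%, and after thinning 5.76% (2.52 to 11.0), 7.73% (5.31 to 10.8) and 3.16% (2.03 to 4.66). Naive CD8 T-like cells, which should lack the gene, had a UMI in 0.0663%, 0.702% and 0.194% of cells at medians of 5827, 5875 and 6665 UMIs, against 8376, 5428 and 7728 in the memory gate. Entry to the memory CD8 gate needed 5 detected memory markers, a count that depends on depth, and its cells numbered 139, 401 and 761. The part of this in the Cx3cr1 ratio was not tested.

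Genes that accompany Cx3cr1 in effector CD8 T cells differed alongside it, and were chosen after values were seen. In memory CD8 T-like cells Gzma, a cytotoxic protease, stood at 923 CPM without and 232 CPM with GA (log2 ratio -1.99, interval -2.09 to -1.89), Klrg1 at 26.4 and 9.27 CPM (-1.42, -2.06 to -0.96), Zeb2, a transcription factor of terminal effectors, at 103 and 41.8 CPM (-1.28, -1.57 to -1.04) and S1pr5 at 35.1 and 14.7 CPM (-1.20, -1.71 to -0.80). Prf1, which encodes perforin, differed by only -0.26. Il7r, the receptor that sustains memory cells, was higher in aged-GA mice by 0.49 (0.40 to 0.58). In NK-like cells Gzma was at -0.08, Zeb2 at 0.14 and S1pr5 at 0.125. Klrg1 (0.375, 0.08 to 0.67) and Prf1 (0.352, 0.22 to 0.49) were higher in aged-GA NK-like cells. Il7r was lower in them (-0.89, -1.81 to -0.08), from 19 and 36 UMIs. In memory CD4 T-like cells Cx3cr1 had 22 UMIs over both libraries and a log2 ratio of 0.09 (-1.25 to 1.57). Between aged and young mice the same genes did not all differ alongside Cx3cr1. Gzma and Prf1 were lower in aged T cells with NK markers (-0.68 and -0.96) and in aged NK-like cells (-0.13 and -0.495). Klrg1, Zeb2 and S1pr5 had positive log2 ratios in both gates. In memory CD8 T-like cells Gzma (0.52), Prf1 (1.22), Zeb2 (1.74) and S1pr5 (1.82) were higher in aged mice, and Klrg1 was at -0.105 (-0.74 to 0.54). The differences between gates were not tested.

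Single cells showed the same set. In the aged memory CD8 gate, 74 cells with a Cx3cr1 UMI had Gzma at 5050 CPM, Zeb2 at 537 CPM, Klrg1 at 109 CPM and Il7r at 109 CPM. The 327 cells without had 342, 42.0, 14.8 and 578 CPM. In aged-GA mice, 58 cells with a Cx3cr1 UMI had Gzma at 2561 CPM, Zeb2 at 341 CPM and Klrg1 at 125 CPM against 124, 27.9 and 3.88 CPM in 703 cells without. Young cells were alike, with Gzma at 4259 CPM in 19 cells with and 147.7 CPM in 120 cells without. The cells with a Cx3cr1 UMI were the shallower ones, at medians of 4190, 3486 and 3904 UMIs against 8617, 6169 and 7942 in the young, aged and aged-GA libraries. Cxcr3 had no common direction between the 2 sets, with 76.6 against 49.5 CPM in young, 80.7 against 97.8 CPM in aged and 117.5 against 81.9 CPM in aged-GA mice.

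**Figure D5:**
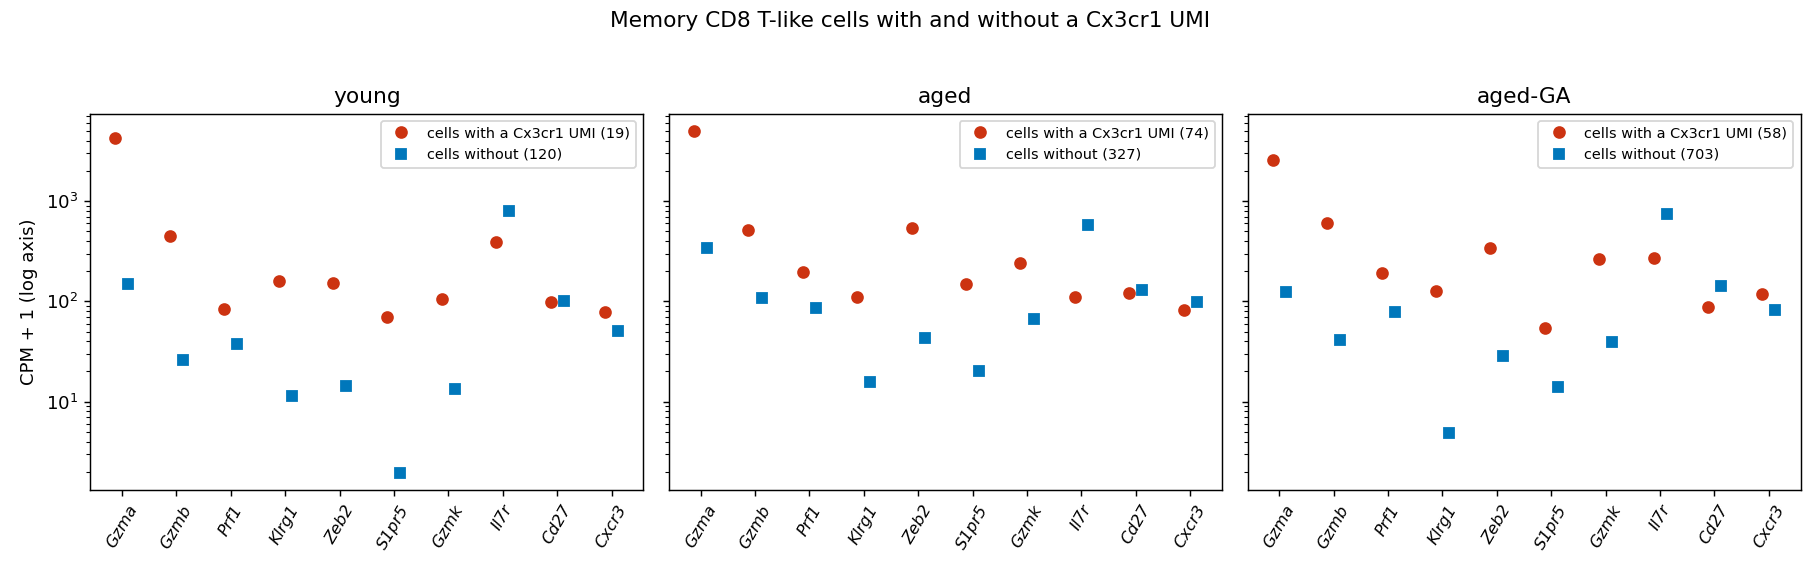
CPM + 1 (log axis) of 10 genes in memory CD8 T-like cells with a Cx3cr1 UMI (red circles) and without one (blue squares), in each library, with the number of cells in the legend. Gzma, Gzmb, Klrg1, Zeb2 and S1pr5 are higher and Il7r lower in cells with a Cx3cr1 UMI in all 3 libraries, as for Gzma at 5050 against 342 CPM in aged mice.

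The other 3 pairs past 2-fold rested on few molecules. Cxcr5 in memory CD4 T-like cells was at 0, 6.79 (2.93 to 13.4) and 17.8 CPM (12.3 to 24.8) in young, aged and aged-GA mice, with 0, 8 and 34 UMIs and an aged-GA over aged log2 ratio of 1.27 (0.25 to 2.71), which lay between 0.73 and 0.99 with a pseudocount of 10 CPM, with each cell counted equally or with 1 more marker per gate. The summed B cell markers of that gate were at 23.35, 39.06 and 61.17 CPM in young, aged and aged-GA mice. Their part in this value was not tested. Of the follicular helper genes, Tox2 was at 69.6 CPM (34.8 to 124.6) in the 30 aged-GA cells with a Cxcr5 UMI against 30.2 CPM (22.6 to 39.5) in the other 353, and these intervals overlapped. The other genes of that list were lower in cells with a Cxcr5 UMI. Icos was at 151.9 against 204.6 CPM and Il21 had 0 against 8 UMIs. Bcl6 and Pdcd1, with 1 and 2 UMIs in these cells, were at 6.33 against 10.8 and 12.7 against 17.7 CPM. Cxcr3 in B-like cells had 75 UMIs in 56 aged-GA cells, up to 9 in a cell, and 14 in aged cells, a log2 ratio of 1.21 (0.95 to 2.73), or 0.32 with a pseudocount of 10 CPM and 0.85 with 1 more marker, in a gate where 0.364% of genes were past 2-fold. The summed T cell markers of that gate were at 23.4, 26.1 and 40.6 CPM in young, aged and aged-GA mice, and their part in this value was not tested. Ccr9 in memory CD8 T-like cells was at -1.61 (-3.82 to -0.82) with 7 against 13 UMIs, and was at -0.84 without the cell with the most UMIs and at -0.48 with a pseudocount of 10 CPM.

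Smaller differences with intervals clear of 0 included those of Cxcr4, Ccr6 and Ccr9. Cxcr4 was lower in aged-GA than in aged naive CD8 T-like cells by -0.47 (-0.73 to -0.21), naive CD4 T-like cells by -0.37 (-0.73 to -0.02), memory CD8 T-like cells by -0.36 (-0.54 to -0.18), T cells with NK markers by -0.35 (-0.65 to -0.05) and B-like cells by -0.30 (-0.36 to -0.24). In mature neutrophil-like cells it was higher, by 0.36 (0.23 to 0.48). Lymphoid and neutrophil gates thus differed in the sign of Cxcr4, all within 1.39-fold. Ccr6 in B-like cells was higher in aged-GA mice by 0.43 (0.27 to 0.61), and Ccr9 in naive CD8 T-like cells was lower by -0.50 (-0.96 to -0.06). Ccr2 in classical monocyte-like cells differed by 0.09 (-0.03 to 0.21) and Cxcr2 in mature neutrophil-like cells by -0.13 (-0.27 to 0.01).

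The partners of the receptors were taken from a list of 17 ligands, 15 other chemokine receptors and 27 signalling genes found in the files. Between aged and young mice 4 of 22 ligand pairs were at least 2-fold higher and 0 lower, 0 of 16 pairs of other receptors passed in either direction, and 25 of 206 signalling pairs were higher and 7 lower. Over all pairs of gene and gate 6.88% were higher and 1.99% lower. The medians were -0.20, -0.16 and 0.30, against medians over all genes of 0.05 to 0.29 in the 9 gates. The 7 lower pairs were all of Rgs1 or Rgs2, regulators that switch off G protein signals, as in naive CD4 T-like cells, where Rgs1 was at 58.4 against 131 CPM and Rgs2 at 101 against 224.5 CPM. Among the higher pairs, Plcb2, a phospholipase downstream of these receptors, passed in NK-like, B-like and memory CD4 T-like cells and in B cells with Zbtb20 markers, and Rgs3 in memory CD4 T-like cells had the largest ratio (2.79, with 26 against 1 UMI).

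In the ligands the largest ratios were of Cxcl2, a ligand of CXCR2 made by myeloid cells. It was at 0 UMIs in young and 26 UMIs in aged memory CD8 T-like cells, and at 0.392 and 13.7 CPM in B-like cells. Summed neutrophil markers were at 0 and 27.7 CPM in the same memory CD8 gates and at 2.48 and 40.15 CPM in the B gates. Their part in these values was not tested. Mature neutrophil-like cells held 10540 CPM of Cxcl2 in aged mice without and 13790 CPM with GA. Ccl2, a ligand of CCR2, was at 359 and 221 CPM in classical monocyte-like cells of these libraries, the same cells that led in Ccr2. Cxcl12, Cxcl13 and Cx3cl1, ligands of stromal and endothelial cells, were at or near 0 in every gate.

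Between aged-GA and aged mice 1 of 41 ligand pairs was at least 2-fold higher and 3 lower, 0 of 31 pairs of other receptors higher and 2 lower, and 3 of 294 signalling pairs higher and 1 lower, with medians of 0.16, 0.15 and 0.00. Over all pairs of gene and gate 1.52% were higher and 1.69% lower. Medians over all genes ran from -0.115 to 0.1 in the 12 gates. The lower ligands were Cxcl10, a ligand of CXCR3, in classical monocyte-like cells (26.3 CPM without and 4.70 CPM with GA, from 142 and 3 UMIs) and mature neutrophil-like cells (16.7 and 6.26 CPM), and Ccl2 in mature neutrophil-like cells (102.5 and 37.6 CPM). Cxcl2 in nonclassical monocyte-like cells was higher (52.0 and 128 CPM). Of the other receptors, Cmklr1, the chemerin receptor, was lower in memory CD8 T-like cells (6.06 and 1.01 CPM) and Ccr10 in memory CD4 T-like cells (13.6 and 4.71 CPM). Rgs1 was lower in T cells with NK markers (332 and 164 CPM) and higher in B-like cells (10.1 and 21.6 CPM).

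Some of the other receptors were as abundant as the 9 described. Ccr7, which leads naive T cells into lymph nodes, was at 564, 668 and 669 CPM in naive CD8 T-like cells of the 3 libraries, where Cxcr4 and Ccr9 were the only members above 10 CPM. Ccr1 stood at 773 and 1091 CPM in mature neutrophil-like cells of aged and aged-GA mice, near Cxcr2.

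For each receptor the 3 genes with the most similar profile were sought among 10445 genes, by Pearson correlation of log2(CPM + 1) over 40 pairs of gate and library, those of red cells included. The pairs share 3 libraries and their depth, so the correlations are descriptions. Cxcr2 was closest to Hdc (0.953), the histamine-forming enzyme and a marker used for the neutrophil gate, and to Cd63 (0.938). Cxcr4 was closest to Btg2 (0.915), an antiproliferative gene, and Arhgap25 (0.898). Cxcr3 was closest to the protease gene Gzmk (0.858) and then to Cxcr6 (0.804), the one case of a member among the 3 nearest genes of another.

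Ccr2 was nearest to S100a4 (0.833), a marker used for memory T cells, and Itga1 (0.805). Cx3cr1 was nearest to Sulf2 (0.846), Kifc3 (0.845) and Cmklr1 (0.845). Cxcr5 was nearest to Fchsd2 (0.863) and H2-Ob (0.849), which modulates antigen loading in B cells, Ccr6 to Dnase1l3 (0.839) and Dclk2 (0.839), Ccr9 to Actn2 (0.840), and Cxcr6 to Ifngas1 (0.873). Within the set, Ccr6 and Cxcr5 (0.736) and Ccr2 and Cx3cr1 (0.666) followed Cxcr3 and Cxcr6 in likeness, and Cxcr5 and Cx3cr1 were least alike (-0.427).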

How the data were processed

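Droplet-based 3′ single-cell libraries of PBMCs (1 per group) were mapped by the authors with Cell Ranger (version 5.0.0 per the file headers, build mm10 per the labels), and raw UMI counts per gene and barcode were deposited. Cells with at least 200 genes, no more than 90% of the largest gene number and no more than 7.5% mitochondrial UMIs were kept, following the methods of the study. Cells were gated by counting detected markers: at least 3 markers of the lineage and no more than 1 of others (2 for related lineages), with further subset markers. The gate limits were set after marker counts were seen, and the receptors and lists were chosen with earlier results of these data known. Doublets were called with Scrublet (scanpy 1.11.5) and kept, except in an alternative.

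From the deposited counts, UMIs were summed per gate and library as CPM, with exact Poisson 95% intervals; ratios used a pseudocount of 1 CPM and at least 20 UMIs, with exact conditional binomial intervals (scipy 1.17.1). "Past 2-fold" is a size, not a test. Shares used cells thinned to 1000 UMIs, with exact binomial intervals; shallower cells were left out. Gates needed 50 cells. Named genes were the receptors in every gate, the 3 most similar genes (at least 100 UMIs, and 10 CPM in 1 gate), pathway genes past 2-fold and markers; other genes were named after their values were seen. Positions came from GENCODE, promoters from RefSeq. The scripts were tested on simulated data. No replicates were available, and the spread between animals is unknown.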

Additional observations from a re-analysis of the deposited data

Results flagged for a closer look

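Cxcr6 differed between aged and young mice with opposite sign in 2 T cell gates: the log2 ratio was -1.4 in memory CD4 T-like cells (35.7 CPM in aged and 95.7 CPM in young mice) and 1.242 in T cells with NK markers (36.5 and 14.9 CPM). The difference between the gates was not tested. The young memory CD4 value rested on 41 UMIs in 9 cells, and of the young cells 16.2% in the memory CD4 gate and 44.8% in the gate of T cells with NK markers were called doublets. In memory CD8 T-like cells Cxcr6 was at 41.1 CPM in both libraries.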

How the results depend on the processing

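No paired analysis was possible because each group was 1 library. No result reversed. The 13 ratios past 2-fold, each under up to 9 alternatives, gave 108 values. Of these, 93 stayed past 2-fold and 15 did not, 8 of them with a pseudocount of 10 CPM. The 93 include the 13 values with no minimum of UMIs, a setting that cannot change a ratio. Of 123 levels of receptors in their leading gates, 98 stayed within their counting interval and 25 did not, 22 of them (of 27) with a denominator free of haemoglobin, mitochondrial, ribosomal and immunoglobulin UMIs. With 1 more marker required per gate, 75 combinations reached 10 CPM (128 in the report). Gates that then fell under 50 cells were not counted, so the totals differ, and their part in the drop was not tested. Of the 15 levels in leading gates that kept 50 cells, 14 stayed within their counting interval. The 7 receptor pairs higher and 1 lower in aged than in young mice became 2 and 0 with 1 more marker, 2 higher with a pseudocount of 10 CPM, 23 and 3 with no minimum of UMIs, and 0 lower by the mean of single cells. With 1 more marker, only 6 of the 13 ratios past 2-fold lay in gates that kept 50 cells, and 4 of these stayed past it. For aged over young these were Ccr2 in B-like and Cx3cr1 in NK-like cells, both still past 2-fold. The other aged over young pairs had no value there. The 2 higher and 3 lower in aged-GA than in aged mice became 0 higher with 1 more marker or a pseudocount of 10 CPM, 1 higher by the mean of single cells, 15 and 9 with no minimum, and 5 lower with that denominator. Pathway pairs (29 higher and 7 lower in aged mice, 4 higher and 6 lower in aged-GA mice) became 8, 4, 2 and 2 with a pseudocount of 10 CPM, and with a minimum of 100 UMIs 4 were higher in aged and 3 lower in aged-GA mice. That denominator shifted the median gene by -0.216 to 0.026 (aged over young) and -0.047 to 0.119 (aged-GA over aged) on the log2 scale, and changed the sign of 2 of 34 and 4 of 50 receptor ratios. Leaving out the cell with the most UMIs of a receptor, chosen after seeing the data, ended 1 of 13 ratios past 2-fold, that of Ccr9. Depth limits the values under about 10 CPM, where a gate holds few UMIs.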
